A study of Mus musculus with 2 samples.

Results

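Bidirectional promoters were taken as pairs of protein-coding genes that lie head to head on opposite strands, with annotated 5′ gene starts at most 1000 bp apart. In the GENCODE M1 models of mouse assembly mm9, 809 such pairs were found, formed by 1601 of 22380 protein-coding genes (7.15%), 17 of which belonged to 2 pairs. Each region held the stretch between both starts plus 500 bp on each side, and it was set against the same 500 bp on each side of the 20779 other protein-coding gene starts. Open chromatin of NMuMG cells, a mouse mammary epithelial cell line, was mapped with DNaseI-seq. Cells of both groups were held without serum and insulin for 6 h and then received, for 2 h, either TGFβ1 at 5 ng/ml (TGFb2h) or the HCl and albumin carrier alone (vehicle). Each group was represented by 1 list of open intervals (peaks), with 17784 distinct peaks for vehicle and 22600 for TGFb2h, so the spread between cultures could not be estimated and no test between the groups was made. Epithelial markers were partly visible in the lists: Krt8, Krt18, Cdh1 and Elf3 carried a peak at their start in both lists, while Krt19, Epcam, Cldn4 and Esrp1 did not. None of 5 fibroblast, 3 blood and 3 endothelial marker starts had a peak in either list.

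A bidirectional promoter serves a pair of genes that are transcribed away from each other from a shared nucleosome-depleted stretch. Such promoters are common in mammals, are often rich in CpG dinucleotides and poor in TATA boxes, and frequently drive housekeeping genes for DNA repair, mitochondrial function and RNA processing. DNaseI cuts where nucleosomes are absent, so a single open stretch between both starts or a separate one at each start can be read from the peaks.

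The sequences of 7 pairs that carry the results below are printed 5′ to 3′ on the plus strand of mm9, from 30 bases before the minus-strand start to 30 bases after the plus-strand start. They are 2 of the 5 pairs with the closest starts, each with a peak at the score ceiling in both lists (Tubgcp2-Zfp511 at chr7:147222259-147222320 and Ndufs1-Eef1b2 at chr1:63223366-63223429), a textbook pair with a wide peak (Brca1-Nbr1 at chr11:101413239-101413493), a textbook pair with no peak (Mrps12-Sars2 at chr7:29526809-29527040), and pairs with a peak in 1 list (Eme2-Mrps34 at chr17:25032002-25032091 and Hist1h2ae-Hist1h2bg at chr13:23663059-23663295 for TGFb2h, Oas1c-Oas1b at chr5:121262493-121262674 for vehicle). Capitals mark exact matches, on either strand, to the motif strings searched. These were CCGGAAG for ETS factors, CGCATGCG for NRF1, GGGCGG for the box bound by Sp1, AAGATGG for YY1, TATAAA for the TATA box, TGACTCA or TGAGTCA for the AP-1 factors, TGACGTCA for the element bound by CREB, CACGTG for the E-box, GTCTAGAC for SMAD factors, and the CCAAT box by its name. No string lies inside another, although neighbouring matches can share bases.
Tubgcp2-Zfp511: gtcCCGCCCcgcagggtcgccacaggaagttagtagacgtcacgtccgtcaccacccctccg
Ndufs1-Eef1b2: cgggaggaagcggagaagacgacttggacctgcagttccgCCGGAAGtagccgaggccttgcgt
Brca1-Nbr1: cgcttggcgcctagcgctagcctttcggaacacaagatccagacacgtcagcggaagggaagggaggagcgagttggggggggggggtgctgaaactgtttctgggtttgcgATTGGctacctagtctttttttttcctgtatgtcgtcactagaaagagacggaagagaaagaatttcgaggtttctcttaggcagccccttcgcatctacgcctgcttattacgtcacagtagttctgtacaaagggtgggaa
Mrps12-Sars2: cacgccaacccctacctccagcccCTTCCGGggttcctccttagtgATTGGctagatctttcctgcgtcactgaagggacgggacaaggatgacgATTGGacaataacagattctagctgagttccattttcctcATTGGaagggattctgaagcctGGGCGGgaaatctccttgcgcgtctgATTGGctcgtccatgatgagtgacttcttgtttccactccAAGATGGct
Eme2-Mrps34: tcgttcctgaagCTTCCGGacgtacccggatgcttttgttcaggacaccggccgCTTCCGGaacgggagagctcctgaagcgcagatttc
Hist1h2ae-Hist1h2bg: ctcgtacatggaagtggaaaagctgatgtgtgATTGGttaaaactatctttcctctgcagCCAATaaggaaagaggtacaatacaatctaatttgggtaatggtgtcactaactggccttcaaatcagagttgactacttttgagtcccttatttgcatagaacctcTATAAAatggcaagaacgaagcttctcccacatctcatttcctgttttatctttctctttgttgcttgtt
Oas1c-Oas1b: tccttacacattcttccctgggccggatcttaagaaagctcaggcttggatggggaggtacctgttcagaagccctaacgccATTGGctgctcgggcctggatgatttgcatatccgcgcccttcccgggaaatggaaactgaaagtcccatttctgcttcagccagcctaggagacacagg

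The paired starts were mostly close together. The distance between them ran from 1 bp to 987 bp with a median of 141 bp and quartiles of 73 and 271 bp. In 299 pairs the starts were 1 to 100 bp apart, in 283 pairs over 100 and up to 250 bp, in 144 pairs over 250 and up to 500 bp and in 83 pairs over 500 bp. The 10 members with the widest spacing (914 to 987 bp) had a vehicle peak in 8 and a TGFb2h peak in 7 cases, and the 10 head-to-head pairs just beyond the limit (1004 to 1030 bp) had one in 8 and 8. The closest starts were those of Tubgcp2, a part of the γ-tubulin ring complex, and the zinc finger gene Zfp511, at 1 bp. Ndufs1, a subunit of respiratory complex I, and Eef1b2, a translation elongation factor subunit, were 3 bp apart, as were Dhrs1 and 2610027L16Rik and the tied pairs Mrps21-C920021L13Rik and Slc7a6os-Prmt7. Around the midpoint of the pair, 301 bp windows had a median GC content of 62.1% and a median observed over expected CpG ratio of 0.850, against 57.5% and 0.554 around other starts. A window was called CpG-rich at a ratio of at least 0.6 and a GC content of at least 50%, which held for 656 of 809 pairs (81.1%, 95% interval 78.2 to 83.6) and 9403 of 20779 other starts (45.3%, 44.6 to 45.9).

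Most bidirectional promoters were open in both groups. A vehicle peak overlapped 686 of 809 regions (84.8%, Wilson 95% interval 82.2 to 87.1), against 42.2% of all 22380 protein-coding starts. A TGFb2h peak overlapped 688 regions (85.0%, 82.4 to 87.3), against 42.3% of all starts. Both lists had a peak at 678 regions (83.8%, 81.1 to 86.2), against 40.3% of all starts, and 113 regions (14.0%, 11.7 to 16.5) had none in either. Among other starts the share was 39.0% (38.3 to 39.6) for vehicle and 39.1% (38.4 to 39.7) for TGFb2h. The difference was 45.8 percentage points (Newcombe 95% interval 43.1 to 48.2) in the vehicle list and 46.0 points (43.3 to 48.4) in the TGFb2h list. All these intervals cover the counting of regions only, and 17 neighbouring regions overlap each other. A region of a pair is longer than the window of a single start, but each paired start taken alone gave nearly the same shares, 84.0% for vehicle and 84.2% for TGFb2h (n = 1601).

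The gap was smaller within CpG-rich starts. Pairs were classed by the window at their midpoint, which need not hold either start where the spacing is wide, and other genes by the window at the start itself. There, 89.0% of 656 regions had a peak in each list, against 72.1% of 9403 other starts, a difference of 16.9 points (14.2 to 19.3) for vehicle and 17.0 points (14.2 to 19.3) for TGFb2h. Between regions with a CpG-poor midpoint and CpG-poor other starts the gap was wider, although these classes rest on unlike windows. A vehicle peak overlapped 102 of 153 CpG-poor regions (66.7%, 58.9 to 73.6) and 1318 of 11376 other CpG-poor starts (11.6%, 11.0 to 12.2). The TGFb2h values were 68.0% (60.2 to 74.8) and 11.8% (11.2 to 12.4). Other starts that had a non-coding gene head to head within 1000 bp, of any CpG content, had a vehicle peak at 68.3% (63.8 to 72.5) and a TGFb2h peak at 68.8% (64.3 to 72.9) of 439 starts. Pairs whose 5′ ends overlap instead of facing each other across a gap (n = 419) had a peak in 77.1% (72.8 to 80.9) for vehicle and 76.8% (72.6 to 80.6) for TGFb2h, a difference from the separate starts of -7.71 points (-12.6 to -3.11) and -8.19 points (-13.0 to -3.59).

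**Figure D1:**
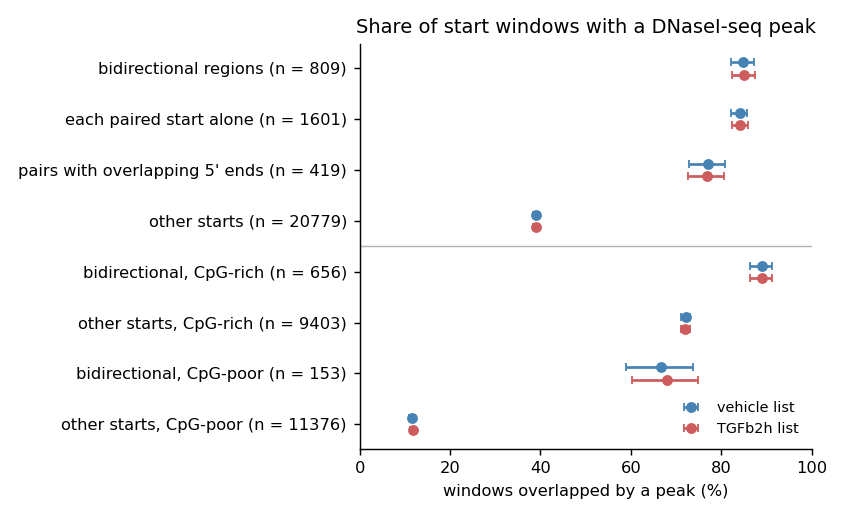
Share of start windows overlapped by at least 1 bp of a peak in the vehicle list (blue) and the TGFb2h list (red), in percent on the horizontal axis, for the groups named with their n. Points are shares and bars are Wilson 95% intervals, and the CpG class of a pair is that of its midpoint. Both lists nearly coincide in every group, and paired starts lie to the right of other starts among all, CpG-rich and CpG-poor starts.

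The share with a peak was higher for the closest starts than for the widest spacing. In the vehicle list the share with a peak was 90.3% (86.4 to 93.2) for starts 1 to 100 bp apart, 82.7% (77.8 to 86.6) for 100 to 250 bp, 82.6% (75.6 to 88.0) for 250 to 500 bp and 75.9% (65.7 to 83.8) for 500 to 1000 bp. The TGFb2h shares in the same order were 90.3%, 82.3%, 83.3% and 78.3%. The intervals of the 3 wider classes overlap each other in both lists, and that of the closest class overlaps the 250 to 500 bp class in both lists and the 100 to 250 bp class in the vehicle list. The interval of the closest class did not reach that of the widest class in either list.

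In most open regions a single peak took in both starts. This held for 636 of 686 regions (92.7%, 90.5 to 94.4) with vehicle and 615 of 688 (89.4%, 86.9 to 91.5) with TGFb2h. The peak covered the minus-strand start alone in 25 vehicle and 32 TGFb2h regions, the plus-strand start alone in 15 and 26, and neither start in 6 and 7. Each start had a peak of its own in 4 regions of the vehicle list and 8 of the TGFb2h list. Peaks were mostly wider than the spacing, with medians of 1008.5 and 882 bp against 141 bp. At such widths, 1 peak over both starts cannot tell a single open stretch from separate ones. The share with both starts in 1 peak was 100% in both lists for starts up to 100 bp apart and 95.7% and 94.8% at 100 to 250 bp. It was 92.4% (86.2 to 96.0) and 85.8% (78.5 to 91.0) at 250 to 500 bp. At 500 to 1000 bp it was 32 of 63 regions (50.8%, 38.8 to 62.7) with vehicle and 21 of 65 (32.3%, 22.2 to 44.4) with TGFb2h. Among the 678 regions with a peak in both lists, 605 had both starts in 1 peak in both lists, 26 with vehicle only and 4 with TGFb2h only.

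Peak centres lay nearer the midpoint of a pair than they did to other starts. In either direction, the centre of the widest peak lay a median of 96.25 bp from the pair midpoint with vehicle (quartiles 40.6 and 190.25, n = 686) and 92.25 bp with TGFb2h (quartiles 41.4 and 177.5, n = 688), against 139 bp (quartiles 64.5 and 245.5) and 127.5 bp (quartiles 60 and 230) from other starts. At other starts, which have a direction, the centre lay a median of 99.75 bp (96 to 104.5) and 83.5 bp (79 to 87) downstream. Where 1 peak covered both starts, the widest peak of the region reached a median of 422.5 bp past a start into the gene body with vehicle and 356 bp with TGFb2h. In a region with more than 1 peak, the widest need not be the one over the starts. At the midpoint itself, 81.8% of all 809 regions lay in a vehicle peak and 81.3% in a TGFb2h peak. For starts 500 to 1000 bp apart these values were 57.8% and 55.4%.

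**Figure D2:**
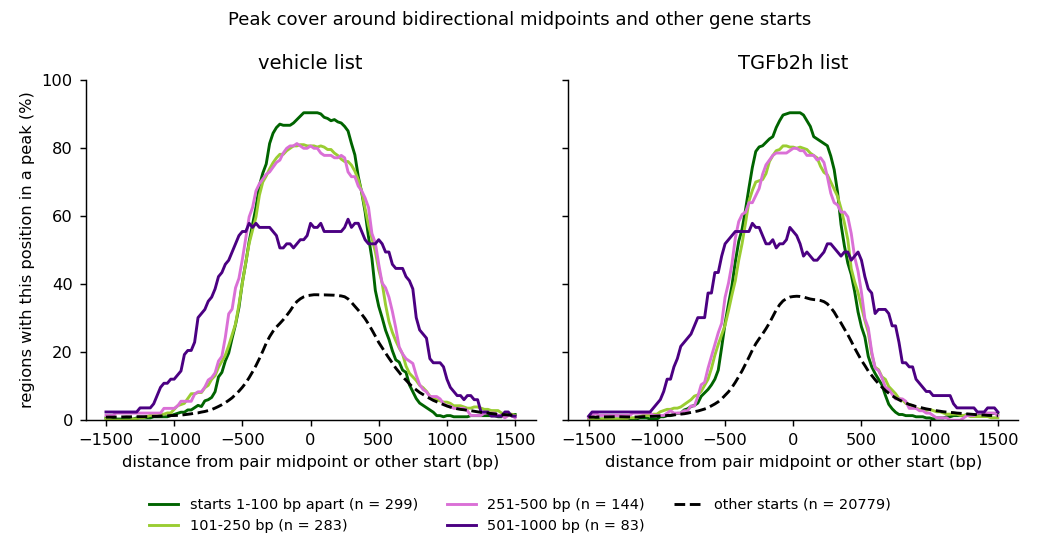
Percent of regions in which the base at each distance (bp, horizontal axis) from the pair midpoint lies in a peak, by distance between the paired starts, with other starts as a dashed line (downstream to the right), for vehicle (left) and TGFb2h (right). Pairs with starts up to 100 bp apart reach 90.3% at the midpoint in both lists, pairs 500 to 1000 bp apart form a lower and broader plateau, and other starts reach 36.7% and 36.3% at the start and lean downstream.

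Peaks at bidirectional promoters were wider than at other starts and narrower in the TGFb2h list than in the vehicle list. The median width of the widest peak was 1008.5 bp with vehicle (95% interval 981 to 1025, quartiles 859.25 and 1195.75, n = 686) and 882 bp with TGFb2h (865 to 894, quartiles 738 and 1028, n = 688). At other starts it was 927 bp (919 to 934, n = 8096) and 802 bp (795 to 808, n = 8116), and over all peaks of a list 770 bp and 621 bp. In CpG-rich starts the order was kept, with 1013 bp and 887 bp for pairs against 942 bp and 816 bp for other starts. At other starts facing a non-coding gene the widths were nearer those of pairs, with 978 bp (949 to 1016, n = 300) for vehicle, an interval that overlaps that of the pairs, and 831.5 bp (804 to 857, n = 302) for TGFb2h. The score of the widest peak stood at the list's ceiling of 1000 in 91.3% (88.9 to 93.1) of vehicle and 89.7% (87.2 to 91.7) of TGFb2h regions, against 81.0% and 75.6% of other starts with a peak. Scores at the ceiling have no order among themselves.

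Of the 678 regions with a peak in both lists, 537 (79.2%, 76.0 to 82.1) had the narrower one with TGFb2h, and the median TGFb2h over vehicle width ratio was 0.873 (0.855 to 0.892). Other starts gave 76.7% (75.7 to 77.6) and 0.888 (0.883 to 0.894, n = 7694), and narrower TGFb2h peaks were thus the more frequent case there too. The vehicle library was the more deeply sequenced one according to the study, and the part of depth in these widths was not tested. The ratio was 0.888 for starts 1 to 100 bp apart, 0.874 at 100 to 250 bp, 0.870 at 250 to 500 bp and 0.785 (0.717 to 0.862, n = 62) at 500 to 1000 bp. Over the same classes the median width was 960.5, 1019, 1051 and 1188 bp with vehicle and 857.5, 891, 909 and 895 bp with TGFb2h. Across regions with a peak, Spearman's rho between spacing and width was 0.216 with vehicle (n = 686) and 0.129 with TGFb2h (n = 688), a description over regions of the same library.

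**Figure D3:**
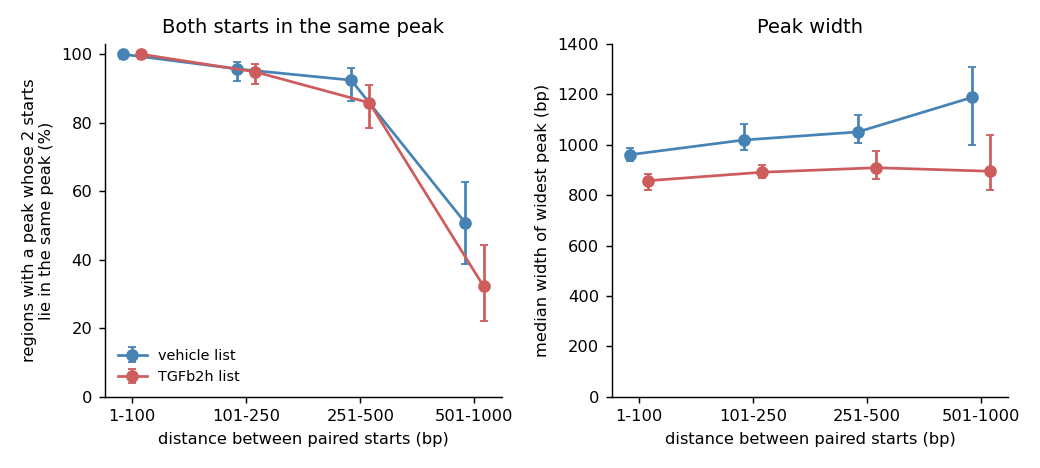
Left, percent of regions with a peak in which both starts lie in the same peak, with Wilson 95% intervals. Right, median width in bp of the widest peak, with order-statistic 95% intervals; both panels are by distance between the paired starts (bp) for vehicle (blue) and TGFb2h (red), and the lists part most at 500 to 1000 bp (50.8% and 32.3%; 1188 bp and 895 bp).

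Some vehicle peaks were matched by several TGFb2h peaks. More than 1 peak fell in 21 of 686 vehicle regions (3.06%, 2.01 to 4.63) and in 40 of 688 TGFb2h regions (5.81%, 4.30 to 7.82), against 1.68% and 3.10% of all starts with a peak, where the TGFb2h share was the higher one as well. Regions of pairs are longer than the window of a single start, and each paired start taken alone gave 2.08% and 4.15%. For regions with starts 500 to 1000 bp apart the counts were 5 of 63 and 16 of 65. One vehicle peak faced 2 or more TGFb2h peaks at 30 of 678 members (4.42%, 3.12 to 6.25), against 2.59% of all starts with a peak in both lists. The reverse was seen at 11 (1.62%, 0.908 to 2.88), against 1.20%, so the first case was the more frequent one at all starts too. These member counts also come from the longer regions. The region of Foxa3, a forkhead factor, and Sympk, a scaffold of RNA 3′-end processing, held 1 vehicle peak of 658 bp and 3 TGFb2h peaks of 244, 166 and 410 bp. This pair was named after its values were seen.

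The widest vehicle peaks lay at Nek8-Tlcd1 (2443 bp, against 915 bp with TGFb2h), 5031425E22Rik-Mll5 (2192 against 1037 bp) and Ift80-Smc4 (1965 against 1112 bp). Nek8 encodes a ciliary kinase, Mll5 a SET-domain chromatin protein, Ift80 a subunit of the intraflagellar transport machinery and Smc4 a condensin subunit. At 5031425E22Rik-Mll5 the TGFb2h list held a neighbouring second peak of 1002 bp in the same region. The widest TGFb2h peaks were at Hnrpdl-Enoph1 (1942 bp), Trip12-Fbxo36 (1729 bp, against 1310 bp with vehicle) and Cep57-Fam76b (1628 bp, against 1949 bp with vehicle). At Hnrpdl, which encodes an RNA-binding protein, and Enoph1, an enzyme of methionine salvage, the vehicle list had 2 peaks of 800 and 752 bp where TGFb2h had 1, and this gave the highest width ratio of 2.43. Taf6-Cnpy4 followed at 1.73 (621 bp with vehicle and 1075 bp with TGFb2h), where the vehicle list again held 2 peaks, and Wbp11-BC049715 at 1.58 (702 and 1108 bp). The lowest ratios were 0.289 at Mllt11-Cdc42se1 (876 and 253 bp), 0.302 at Dhrs1-2610027L16Rik (829 and 250 bp) and 0.323 at Basp1-Gm5468 (1754 and 567 bp).

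**Figure D4:**
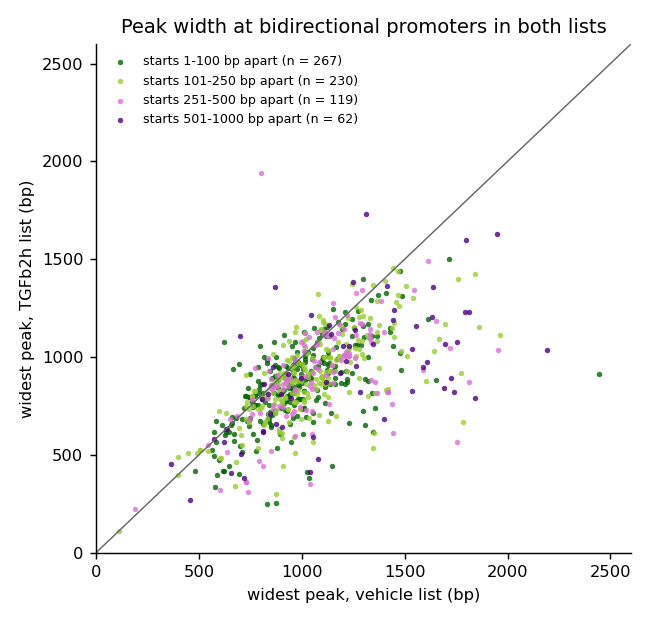
Width in bp of the widest peak at each of the 678 pairs with a peak in both lists, vehicle on the horizontal and TGFb2h on the vertical axis, coloured by the distance between the paired starts, with a line of equal width. 537 points lie below the line, and Hnrpdl-Enoph1 is the point farthest above it (800 and 1942 bp).

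Few bidirectional promoters had a peak in 1 list only. A peak was listed with vehicle alone at 8 of 809 regions (0.989%, 0.502 to 1.94), against 1.88% of all starts, and with TGFb2h alone at 10 regions (1.24%, 0.673 to 2.26), against 1.98% of all starts. Against other starts the differences were -0.95 points (-1.47 to 0.02) for vehicle alone and -0.79 points (-1.39 to 0.25) for TGFb2h alone, and both intervals hold 0. With each paired start taken by itself they were -0.81 points (-1.27 to -0.14) and -0.72 points (-1.21 to -0.01), and both intervals lie below 0. Within CpG-rich starts the differences were -1.58 points (-2.12 to -0.53) and -1.55 points (-2.09 to -0.50), and these intervals lie below 0. Within CpG-poor starts they were 0.36 points (-0.95 to 4.01) and 1.47 points (-0.42 to 5.63). These shares also count windows without any peak, which were 14.0% of members and 59.0% of other starts. Of members with a vehicle peak, 8 of 686 had no TGFb2h peak, against 402 of 8096 other starts. Of those with a TGFb2h peak, 10 of 688 had no vehicle peak, against 422 of 8116. Within CpG-poor starts these counts were 3 of 102 against 182 of 1318 and 5 of 104 against 205 of 1341. Counted this way, the part in 1 list only was lower in members each time. With ceiling peaks alone, 31 members had a vehicle peak only and 23 a TGFb2h peak only. With the TGFb2h list cut to the number of vehicle peaks the counts were 16 and 8, and with starts at most 300 bp apart 7 and 6. Each of these settings turns their order. A peak listed in 1 group says where an interval was called and not that the other group had no signal.

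The regions with a TGFb2h peak only included Eme2-Mrps34 (973 bp), Bend6-Dst (918 bp), Ndufa1-Rnf113a1 (661 bp), Hist1h2ae-Hist1h2bg (602 bp), 4930451C15Rik-P2rx6 (579 bp), Rad54l-Pomgnt1 (549 bp), Tbc1d16-Ccdc40 (478 bp) and Hspa1a-Hspa1l (337 bp). Eme2 encodes a subunit of a structure-specific DNA endonuclease, Mrps34 and Ndufa1 mitochondrial proteins, Rad54l a recombination repair protein and Hspa1a the stress-inducible heat shock protein of its family. Of those named, the peaks at Hist1h2ae-Hist1h2bg and 4930451C15Rik-P2rx6 reached the score ceiling, and the others scored 566 to 903. The peaks at 4930451C15Rik-P2rx6 and Hspa1a-Hspa1l covered the minus-strand start alone.

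The 8 regions with a vehicle peak only were Dnajc18-1700066B19Rik (951 bp), Gm9922-Lmo7 (772 bp), Wdr54-1700003E16Rik (551 bp), Oas1c-Oas1b (523 bp), Gpc2-Stag3 (482 bp), C2-Ehmt2 (411 bp), Ptchd1-Gm15155 (371 bp) and H2-T22-Gm6034 (263 bp). Oas1c and Oas1b belong to the interferon-inducible oligoadenylate synthetases, Stag3 encodes a meiotic cohesin subunit, C2 a complement protease and Ehmt2 a histone methyltransferase. Only the peak at Dnajc18-1700066B19Rik reached the score ceiling, and the others scored 543 to 783. The peak covered the Gpc2 start alone at Gpc2-Stag3, the plus-strand start alone at H2-T22-Gm6034 and neither start at Ptchd1-Gm15155.

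Among textbook head-to-head pairs, 4 met the rule. Atm-Npat, the DNA damage kinase and a histone gene activator, had starts 307 bp apart and 1 peak over both of 1337 bp with vehicle and 884 bp with TGFb2h. Brca1-Nbr1, the recombination repair protein and a selective autophagy receptor, had starts 194 bp apart and peaks of 1505 and 1365 bp. Mcm4-Prkdc (466 bp apart) and Mrps12-Sars2 (171 bp apart) had no listed peak in either group, and their nearest peaks lay 42125 and 14411 bp away with vehicle and 42125 and 14410 bp with TGFb2h. Other textbook pairs, among them Hspd1-Hspe1, Col4a1-Col4a2, Surf1-Surf2, Ppat-Paics, Tap1-Psmb9 and Hars-Hars2, have annotated 5′ ends that overlap and were therefore no members.

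DNA repair and replication genes were often paired. Of 111 genes on that list, 32 (28.8%) stood in a bidirectional pair, against 7.15% of all protein-coding genes, and they formed 31 distinct pairs once Rad17-Taf9, annotated under 2 Taf9 identifiers, was counted once. In 28 of these both lists had a peak (83.8% over all members), with median widths of 974.5 bp (547 to 1505) for vehicle and 846.5 bp (397 to 1365) for TGFb2h, and 23 were narrower with TGFb2h (79.2% over all members). These counts lie near the shares over all members. Examples are Chek2, a checkpoint kinase, with Hscb (1049 and 923 bp), Palb2, a Brca2 partner, with Dctn5 (976 and 699 bp) and Fancd2, of the crosslink repair pathway, with Tmem111 (763 and 609 bp). Rad54l-Pomgnt1 was among the TGFb2h-only regions, and Mcm4-Prkdc had no peak in either list.

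Mitochondrial genes were paired in 46 of 211 cases (21.8%, against 7.15% of all genes), in 44 pairs. Both lists had a peak at 40 (83.8% over all members), with median widths of 995 bp (446 to 1953) and 860 bp (508 to 1438), and 33 were narrower with TGFb2h (79.2% over all members). Sdhd-Timm8b, a succinate dehydrogenase subunit and an import chaperone, had peaks of 1117 and 863 bp. Sdha-Ccdc127 had peaks of 1047 and 929 bp, and Atp5h-Kctd2, with a subunit of ATP synthase, 1061 and 857 bp. Eme2-Mrps34 and Ndufa1-Rnf113a1 had a TGFb2h peak only, and Mrpl49-Fau and Mrps12-Sars2 had none.

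Of the 6 gene lists, histone genes had the highest paired share (27 of 67, in 14 pairs, against 7.15% of all genes) and the lowest median widths. Both lists had a peak at 9 (83.8% over all members), with median widths of 604 bp (188 to 744) and 454 bp (223 to 670). Hist1h2ak-Hist1h2bn, Hist1h2bq-Hist1h2ao, Hist1h2ap-Hist1h2br and Hist1h2ba-Hist1h2aa had no peak in either list. Histone genes have near-identical copies whose reads can be hard to place, and the part of this in the missing peaks was not tested. Ribosomal protein genes were paired in 9 of 138 cases (6.52%, against 7.15% of all genes), and 8 of these 9 pairs had a peak in both lists (83.8% over all members), such as Med22-Rpl7a (1308 and 889 bp). Rnf151-Rps2 had none.

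Symbols that start like collagens gave 3 of 44 genes (6.82%, against 7.15% of all protein-coding genes) in 2 pairs: Col4a4-Col4a3, both basement membrane collagens, without a peak, and Polk-Col4a3bp (1403 and 1388 bp), in which Col4a3bp encodes a ceramide transfer protein and no collagen. Of 56 TGFβ and EMT genes, only Acvr1, a type I receptor of the TGFβ family, was a member. Its pair with Upp2, a uridine phosphorylase gene, had starts 141 bp apart and a peak of 1334 bp with vehicle and 1199 bp with TGFb2h.

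The 113 members without a peak were mostly far from any other. The distance from the region to the nearest peak had a median of 28026 bp with vehicle (quartiles 9064 and 64845) and 25170 bp with TGFb2h (9154.5 and 57504), over the 112 of them on nuclear chromosomes, and was at most 1000 bp for 6 and 4. The remaining one, mt-Nd6-mt-Cytb, lies in the mitochondrial genome. Of the 113, 67 were CpG-rich (59.3%, 50.1 to 67.9), against 579 of the 678 with a peak in both lists (85.4%, 82.5 to 87.9), and their starts were a median of 174 bp apart (148 to 216), against 134.5 bp (122 to 144). They included pairs of broadly used genes with a CpG-rich midpoint window. Whether the lists used here hold every called interval could not be checked, so the shares with and without a peak refer to listed intervals. The nearest vehicle and TGFb2h peaks lay 97560 and 62556 bp from Hnrnpa2b1-Cbx3, an RNA-binding protein and a heterochromatin protein, and 24047 and 22353 bp from Aurka-Cstf1, a mitotic kinase and a polyadenylation factor. For Mrpl49-Fau, with a ribosomal protein fusion gene, they lay 2635 and 2633 bp away. Sgce-Peg10, an imprinted pair, had its nearest peak at 145482 and 145481 bp. These 4 pairs were chosen after their values were seen.

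ETS factors are activators of many housekeeping promoters, and their string was more frequent in the members than at other starts. It occurred in 228 of 809 midpoint windows of 301 bp (28.2%, 25.2 to 31.4), against 10.2% (9.79 to 10.6) of other starts and 11.3% of all starts. Within CpG-rich windows the shares were 33.4% (29.9 to 37.1, n = 656) for pairs and 17.3 to 18.8% (95% interval, 1695 of 9403) for other starts. It was found in 212 of the 678 regions with a peak in both lists (31.3%, 27.9 to 34.9) and 13 of the 113 with none (11.5%, 6.85 to 18.7). Eme2-Mrps34 and Ndufs1-Eef1b2, printed above, hold it, and so does Mrps12-Sars2, which had no peak. The NRF1 string was in 5.56% (4.18 to 7.36) of members, 1.89% of other starts and 2.13% of all starts, and within CpG-rich windows in 6.71% (5.03 to 8.88) and 3.78% (3.41 to 4.18).

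Other promoter strings differed less or followed the base composition. The CCAAT box was in 43.1% (39.8 to 46.6) of members, 35.3% of other starts and 35.8% of all starts, and in CpG-rich windows in 41.9% of pairs and 32.2% of other starts. In windows of 500 bp on each side its order turned, with 68.6% of members and 70.6% of other starts. The YY1 string was in 10.4% (8.47 to 12.7), 7.20% and 7.37%. Among CpG-rich windows it kept that order, with 11.3% (9.08 to 13.9) of pairs and 7.49% (6.97 to 8.04) of other starts. GC boxes, the GGGCGG string, were in 67.2% (63.9 to 70.4) of members, 44.1% of other starts and 45.8% of all starts, yet CpG-rich windows gave 74.1% for pairs and 76.6% for other starts. The TATA box was in 4.70% (3.44 to 6.38) of members, 11.4% of other starts and 10.9% of all starts, and among CpG-rich windows in 2.13% (1.28 to 3.55) and 3.86% (3.49 to 4.27). Hist1h2ae-Hist1h2bg, printed above, holds 2 CCAAT boxes and 1 TATA box. The CREB element (CRE) was in 4.33% of members and 2.23% of all starts, and the E-box in 10.3% and 7.30%. Among CpG-rich windows the E-box was in 11.0% of pairs and 10.4% of other starts, and CRE in 4.88% (3.48 to 6.81) and 3.52% (3.17 to 3.91). The AP-1 string was in 2.35% (1.51 to 3.64) of members, 4.05% of other starts and 3.90% of all starts, and among CpG-rich windows in 1.83% (1.05 to 3.17) and 2.08% (1.81 to 2.39). The SMAD string was in 2 members (0.247%, 0.0678 to 0.897) and 0.130% of all starts. These exact matches describe the sequence and do not show binding.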

How the data were processed

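The deposited peak lists give, for each condition, intervals on mm9 with a whole-number score that the authors attached to each peak (540 to a ceiling of 1000). The score was used only within its own list. According to the study's methods, DNaseI-seq reads went through the ATAC-seq pipeline, in which peaks were called with MACS2 2.1.2 and filtered by reproducibility between replicates, with assay-specific options that the methods leave unstated. The labels also name deepTools. The lists give no read depth, and a deeper library can yield wider or more peaks. Rows that repeated an interval were collapsed to 1 peak, and in each list 1 peak ended 37 bp past a chromosome end.

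Gene starts were the outermost 5′ ends of GENCODE M1 protein-coding gene models. An overlap of 1 bp counted. Base composition and exact motif strings were read from NCBIM37 in 150 bp on each side of the midpoint or start. Shares carry Wilson and differences Newcombe 95% intervals, and medians binomial order-statistic intervals. The markers, gene lists and members were chosen with earlier results of these data known. Pairs were named by rule: textbook pairs, the 5 widest peaks listed in 1 group, the 3 widest peaks per list, the 3 highest and 3 lowest width ratios, the 3 closest starts (ties broken by chromosome and position, with the tied pairs also given), and up to 5 members of each gene list, with the exceptions stated and with further regions listed in 1 group added after their values were seen. Some pairs are not reported here. Replicate lists were not analysed here. The start window of Spi1, a blood marker, was not matched by symbol. Alternatives changed the pad, the spacing limit, the pair geometry, the gene start, the peaks kept, the chromosomes, the members, the comparison genes, the overlap and the motif window. Scripts were tested on simulated intervals with known overlaps. Python 3.11.15, pandas 2.3.3, numpy 2.4.6, SciPy 1.17.1 and matplotlib 3.10.9 were used.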

Additional observations from a re-analysis of the deposited data

How the results depend on the processing

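Of 157 alternative values for 25 results, 106 moved by less than their counting interval (or 1.5 times for counts) and 51 moved by more. The order of a pair of values turned for the regions listed in 1 group and for CCAAT in members and other starts. Both are given below. Under some settings the order also turned between vehicle and TGFb2h for the share with a peak. The main shares, whose vehicle and TGFb2h intervals overlap, were 84.8% and 85.0% of members and 39.0% and 39.1% of other starts. Peaks at the score ceiling alone gave 77.5% and 76.5%, and 31.6% and 29.6%. For paired minus other starts, 45.8 and 46.0 points became 45.3 and 45.1 points with a pad of 1000 bp. The difference between paired and other starts stayed above 0 in all 33 values, and the TGFb2h over vehicle width ratio stayed below 1 in all 12. The cause of each move was not tested. Values are given for vehicle and then TGFb2h.

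Without a pad, other starts had a peak in 36.7% and 36.3%, and with a pad of 1000 bp in 39.9% and 40.3%. With starts at most 300 bp apart, 7 regions had a vehicle peak only and 6 a TGFb2h peak only, which turns the main order. Both starts then lay in 1 peak in 97.8% and 96.4% of open regions. The same share at most 500 bp apart was 97.0% and 95.3%, both limits being applied to it after seeing the data. Adding pairs with overlapping 5′ ends gave a TGFb2h share of 82.2%, other starts 37.4% and 37.6%, and 17 and 18 regions listed in 1 group. Starts of any coding transcript gave 38.0% and 38.1% for other starts. Peaks at the score ceiling alone gave 77.5% and 76.5% of members, 31.6% and 29.6% of other starts, and 31 and 23 regions listed in 1 group. Keeping as many TGFb2h as vehicle peaks, by score and then width, gave 36.9% of other starts and 16 regions with a vehicle peak only against 8 with a TGFb2h peak only. Asking a peak to cover at least 50% of the window gave 80.6% and 75.3% of members and 35.5% and 33.4% of other starts.

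The difference fell to 12.7 and 13.0 points against CpG-rich other starts, to 42.9 and 43.0 points without chemosensory receptor genes, and to 16.5 and 16.3 points against starts facing a non-coding gene. Counting every deposited row gave median widths of 1076 and 930 bp and 93.3% and 92.1% at the ceiling. As alternatives chosen after seeing the data, covered bases in place of the widest peak gave a ratio of 0.919, and pairs without clone or predicted symbols (n = 604) had a peak in 88.2% and 89.1%. In motif windows of 500 bp on each side, members held ETS in 41.5%, NRF1 in 8.41%, the GC box in 89.0%, CCAAT in 68.6%, YY1 in 22.7%, TATA in 14.5%, AP-1 in 7.05%, CRE in 6.18%, the E-box in 21.6% and SMAD in 1.11%; at this length CCAAT was in 70.6% of other starts, which turns the order seen in the shorter windows.

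No paired analysis was possible because only 1 list stood for each treatment. Regions are no replicates, the intervals do not include the spread between cultures or libraries, and a region without a listed peak was not shown to be closed.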

Other observations

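By chromosome, the share of bidirectional regions with a peak in the vehicle list ran from 67.6% of 34 regions on chromosome 12 to 93.0% of 57 on chromosome 8 among autosomes with at least 20 pairs. In the TGFb2h list the range ran from 66.7% of 27 regions on chromosome 14 to 94.3% of 53 on chromosome 4. On chromosome X, 14 of 19 regions had a peak in each list. The histone, mitochondrial and repair genes that were not in bidirectional pairs had a vehicle peak at 17 of 40, 137 of 165 and 67 of 79 starts, and a TGFb2h peak at 16, 137 and 69 of them, against 39.0% and 39.1% of all other starts. The unpaired mitochondrial (83.0% in each list) and repair genes (84.8% and 87.3%) thus had a peak about as often as bidirectional regions (84.8% and 85.0%). Ribosomal protein genes outside pairs had a peak at 50.4% of 129 starts and TGFβ and EMT genes at 78.2% of 55 in each list. Unpaired collagen genes had one at 4 of 41 starts with vehicle and 5 with TGFb2h.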
